A study of Rattus norvegicus with 6 samples.

Results

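Actb, B2m, Gusb and Hprt1 are reference genes that the Arraystar rat circRNA array carries as linear messenger RNA probes beside its circRNA probes. They were chosen by name and matched through the RefSeq transcript each probe was designed on, NM_031144.2 for Actb, NM_012512.1 for B2m, NM_017015.2 for Gusb and NM_012583.2 for Hprt1. They are 4 of 62 probes counted here as linear, those outside the circRNA set that were printed at 10 spots. Of the 62, 39 could be matched to 1 gene symbol. The array holds 14227 non-control probes, 14145 of them against circRNAs, and the few printed otherwise were counted in neither set. Each of the 4 probes was printed at 10 spots on every array, so that 240 spots on 6 arrays measured them.

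The arrays held RNA from the hypothalamus of male Sprague Dawley rats that weighed 180 to 200 g at the start, and the RNA of every sample had been treated with RNase R. The HA group (n = 3) was heat acclimated in a chamber at 35°C and 55% relative humidity for 2 h per day over 30 days, and the C group (n = 3) was kept at 24°C without heat exposure. Rats of both groups were killed on day 31, and each array came from 1 rat, so the spread within a group holds differences between rats as well as those of RNase R digestion, labelling and hybridization. The tissue was a bulk dissection, in which fewer cells of a type and less RNA per cell cannot be told apart. Of 31 marker symbols listed for neurons, glia, vessels, pituitary and blood, 2 could be matched to a probe, Map2 and Dlg4, which encode a dendritic microtubule protein and a postsynaptic scaffold. Both neuronal probes were well above background on all 6 arrays, and the other 29 markers were not analysed here.

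Reference genes are transcripts of basic cell functions that are used to scale the values of other genes between samples, on the premise that their own level does not differ. Actb encodes beta-actin, a main protein of the cytoskeleton, and B2m encodes beta-2-microglobulin, the light chain of MHC class I molecules at the cell surface. Gusb encodes beta-glucuronidase, a lysosomal enzyme that breaks down glycosaminoglycans, and Hprt1 encodes hypoxanthine phosphoribosyltransferase, which returns purine bases to the nucleotide pool. RNase R is an exonuclease that degrades linear RNA from its 3′ end and spares closed circles, so after this treatment the signal at a messenger RNA probe is that of linear RNA left over in the sample, plus any circular RNA holding the same stretch. The probe sequences were not analysed here, so the exon each probe lies in is not given. How much of each transcript the digestion removed was not measured, because every sample was treated.

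All 4 transcripts gave signal on every array after RNase R, and none differed between HA and C rats beyond the spread between rats. The normalized means differed by 0.43 for Actb, 0.14 for B2m, 0.02 for Gusb and -0.09 for Hprt1 on the log2 scale (HA minus C). On the same scale the SD within groups was larger than each difference, at 0.55 for Actb, 0.60 for B2m, 0.18 for Gusb and 0.51 for Hprt1. Before normalization, where the brightness of each array as a whole enters, the highest array was 3.23 times the lowest for Actb and 3.07 times for B2m. The 10 spots within an array lay far closer together than that for both genes.

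Actb lay far above background on every array. Its processed signal, which is the scanner's intensity after background correction and is without unit, had medians over the 10 spots of 481, 435 and 727 in C replicates 1, 2 and 3. In HA replicates 1, 2 and 3 the medians were 361, 678 and 1147. The HA group thus held both the lowest and the highest Actb array, and the C arrays lay between them. All 60 Actb spots were well above background, and 0 were outliers.

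B2m followed a like order, with medians of 51.1, 57.1 and 111 in C replicates 1 to 3. HA replicates 1 to 3 had 44.7, 61.9 and 137. HA replicate 3 and C replicate 3 were the brightest arrays for B2m, and the other 4 lay close together.

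Gusb differed least between arrays, by 1.62-fold from the lowest to the highest. Its medians were 14.9, 13.0 and 17.3 in C replicates 1 to 3, and 13.5, 15.1 and 20.4 in HA replicates 1 to 3. The groups overlapped, and the 2 brightest arrays were again HA replicate 3 and C replicate 3. All 60 Gusb spots were well above background, but 4 were outliers, 1 in C replicate 1, 1 in HA replicate 1 and 2 in HA replicate 3, and were left out of the means.

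Hprt1 differed by 2.78-fold between its lowest and highest array. C replicates 1 to 3 had medians of 9.08, 14.6 and 20.9, and HA replicates 1 to 3 had 9.85, 11.6 and 23.7. C replicate 1 and HA replicate 1 were the dimmest arrays. On these 2 arrays some spots were not well above background, since 7 of 10 passed in C replicate 1 and 9 of 10 in HA replicate 1. Elsewhere all spots passed, which gave 56 of 60 in all, and 1 outlier spot in C replicate 3 was left out. Negative control spots, 77 on each array, set the floor, and the brightest of them reached between 1.27 and 4.01 depending on the array.

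**Figure D1:**
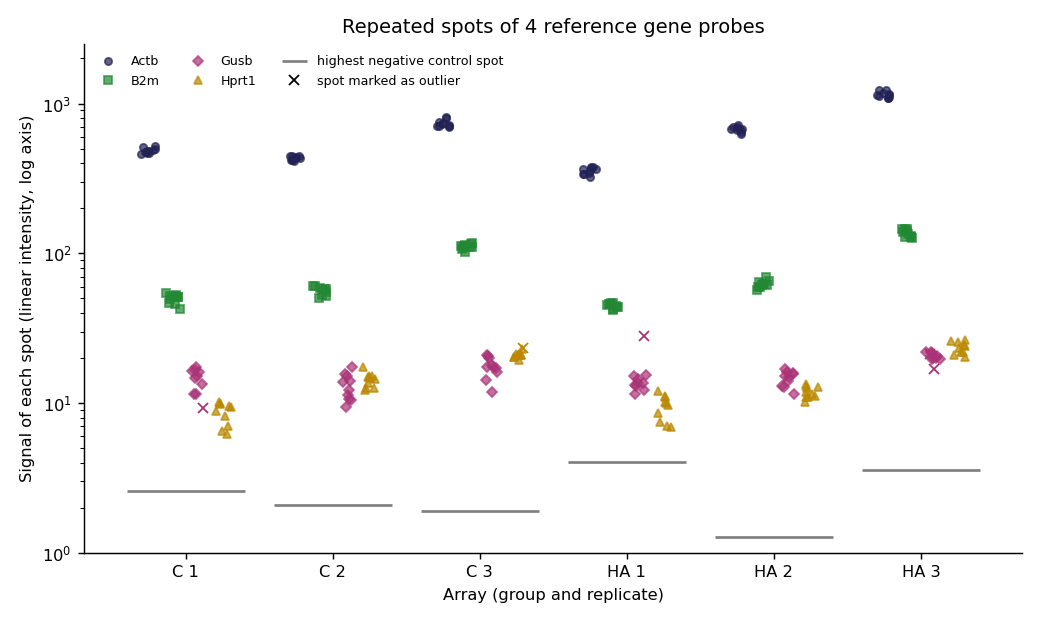
Processed signal of the repeated spots (log axis, no unit) for Actb, B2m, Gusb and Hprt1 on the 6 arrays, with each spot as a point. Actb and B2m spots form tight bands that lie at different heights on different arrays, while Gusb bands are wide compared with the distance between arrays, and Hprt1 lies highest on C replicate 3 and HA replicate 3.

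The repeated spots give the error of measuring a gene within an array, which limits what can be said of each rat. The coefficient of variation over the spots of an array was 3.05% to 5.29% for Actb and 3.52% to 7.30% for B2m. It was 4.61% to 20.02% for Gusb and 4.77% to 19.3% for Hprt1. Repeated spots of Actb and B2m thus scattered by under 8% on every array, and those of Gusb and Hprt1 by more on most arrays. The median intensity of the spots of an array over their local background was 27.2 to 72.9 for Actb and 4.27 to 10.1 for B2m, against 2.14 to 2.51 for Gusb and 1.84 to 2.76 for Hprt1. The scanner software's own error model gave, as the median over the spots of an array, an error of 10.0% for Actb on each array and of up to 10.4% for B2m, 14.97% for Gusb and 19.1% for Hprt1. Single spots reached 10.6% for B2m, 20.1% for Gusb and 27.7% for Hprt1.

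The spread between rats of a group was larger than this error. On the log2 scale before normalization, where it includes the brightness of each array as a whole, the SD between arrays within groups was 0.66 for Actb, 10.7 times the SD between spots. For B2m it was 0.74, or 8.997 times the spot SD, and for Hprt1 0.68, or 3.52 times. Gusb had an SD between arrays of 0.28, which was 1.36 times its spot SD. Against the SE of the mean of an array's spots, the same SD was 33.8 times as large for Actb, 28.5 times for B2m, 4.23 times for Gusb and 11.1 times for Hprt1.

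The scatter of repeated spots was compared between groups as well. For Gusb, the SD of log2 signal over spots was 0.13 ± 0.05 in HA and 0.25 ± 0.03 in C arrays (mean ± SD, n = 3 each), and the groups did not overlap. The exact two-sided permutation test gave P = 0.1, the smallest that 3 arrays against 3 allow, and P = 0.4 after Benjamini-Hochberg adjustment over the 4 genes. With outlier spots kept, 3 of 4 of which were on HA arrays, the difference shrank from -0.13 to -0.07 (exact permutation P = 0.4). For the other 3 genes the spot SD did not pass the exact permutation test, with P from 0.5 to 0.9.

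Before any normalization, Actb averaged 9.35 ± 0.85 in the HA group and 9.07 ± 0.41 in the C group (log2 signal, mean ± SD, n = 3), a difference of 0.28 with an exact permutation P = 0.7. B2m averaged 6.18 ± 0.83 in HA and 6.08 ± 0.63 in C rats, which differed by 0.10 (exact permutation P = 0.9). Gusb averaged 3.995 ± 0.33 and 3.88 ± 0.21, which differed by 0.11 (exact permutation P = 0.7), and Hprt1 averaged 3.77 ± 0.70 and 3.76 ± 0.66, which differed by 0.01 (exact permutation P = 1.0). No difference exceeded the SD of either group, and the adjusted P was 1.0 for every gene. With 3 rats against 3 this test cannot give a P under 0.1. HA replicate 1 was the only HA array at row position 1 of a slide, where all C arrays were as well. The other HA arrays were at row position 2. HA replicate 1 lay below the C mean by 0.59 for Actb, 0.60 for B2m, 0.13 for Gusb and 0.55 for Hprt1 (log2 signal). After normalization the same differences of HA replicate 1 from the C mean were -0.01 for Actb, -0.15 for B2m, 0.25 for Gusb and -0.18 for Hprt1.

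Quantile normalization, which gives all arrays the same distribution of signals, left C replicate 3 and HA replicate 3 as the 2 highest arrays for Actb, B2m and Hprt1, but not for Gusb. Normalized Actb was 8.88, 8.72 and 9.40 in C replicates 1 to 3 and 8.99, 9.08 and 10.22 in HA replicates 1 to 3. HA replicate 3 stood above all other arrays, and the other HA arrays lay within the range of the C arrays. The Actb difference of 0.43 (SE 0.33) had a 95% confidence interval of -0.31 to 1.17, which is 0.81-fold to 2.25-fold, and limma gave an adjusted P = 0.923 (Benjamini-Hochberg over 13892 probes). Without HA replicate 3 the Actb difference was 0.04, so this array carried nearly all of it.

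Normalized B2m was 5.65, 5.92 and 6.66 in C replicates and 5.92, 5.74 and 6.97 in HA replicates, again with replicate 3 highest in each group. The difference of 0.14 (SE 0.35) had a 95% interval of -0.66 to 0.93, and limma gave an adjusted P = 0.977. As a fold, the interval ran from 0.63 to 1.90.

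Gusb was the most even of the 4 after normalization, at 3.95, 3.91 and 3.94 in C and 4.18, 3.68 and 4.004 in HA replicates. The SD of the 3 C arrays was 0.02, and the HA arrays lay on either side of them. HA replicate 1, the highest for normalized Gusb, had the lowest median circRNA signal before normalization. HA replicate 2, the lowest for normalized Gusb, had the highest. Its difference of 0.02 (SE 0.18) had the narrowest interval, -0.39 to 0.43 on the log2 scale, or 0.76-fold to 1.35-fold (limma, adjusted P = 0.997).

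Normalized Hprt1 was 3.16, 4.05 and 4.25 in C and 3.64, 3.36 and 4.19 in HA replicates, so that the HA values lay within the range of the C values. Its difference of -0.09 (SE 0.31) had an interval of -0.79 to 0.60, and limma gave an adjusted P = 0.983. The sign of this difference was not settled, since scaling to the 75th percentile of each array gave 0.14 and no normalization gave 0.01.

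**Figure D2:**
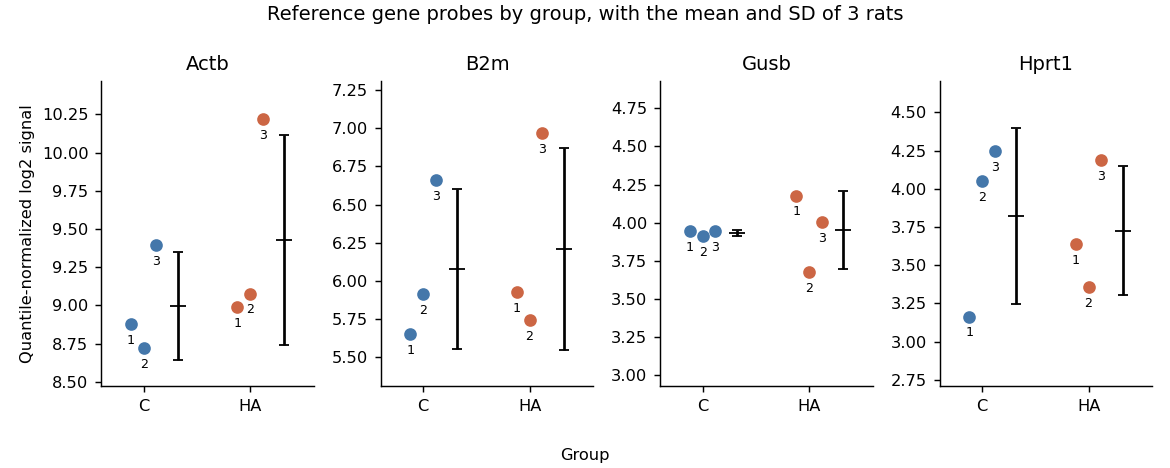
Normalized log2 signal of each gene in the 3 C and 3 HA rats, with every array as a point and the group mean and SD drawn beside it. The groups overlap for all 4 genes, HA replicate 3 is the highest Actb array at 10.22, and the C values of Gusb lie almost on each other.

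Of the 4 genes, 0 passed an unadjusted P under 0.05 in limma, where 4.66% of all tested probes did, and 0 passed a fold change over 1.5 with that P, against 2.65% of all probes. After Benjamini-Hochberg adjustment the limma test called 0 of 4 and 0% of all probes, 648 of which had an unadjusted P under 0.05. The groups did not overlap for 0 of the 4, against 10.0% of all probes after and 4.68% before normalization. A count of 0 of 4 is near each of these backgrounds. Actb, B2m and Hprt1 had a wide spread. Their SD within groups after normalization was 0.55, 0.60 and 0.51, larger than that of 95.1%, 96.5% and 93.3% of probes, whose median SD was 0.25. Gusb, with an SD of 0.18, was more variable than 26.6% of probes. Linear probes varied more than the whole table, and the 45 others that were tested had a median SD of 0.33. Of these 45, 5 had a larger SD than Actb, 4 than B2m, 8 than Hprt1 and 40 than Gusb. These ranks are a description and were given no test.

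Before normalization HA replicate 3 was the highest and C replicate 3 the next highest array for each of them. Over the 6 arrays, Pearson's r was 0.92 for Actb and B2m (exact permutation P = 0.0028, adjusted over 6 pairs 0.0167) and 0.95 for B2m and Hprt1 (exact permutation P = 0.0069, adjusted 0.0167). Actb and Gusb had r = 0.92 (exact permutation, adjusted P = 0.0167), and B2m and Gusb had r = 0.92 (exact permutation, adjusted P = 0.0229), while the 2 other pairs did not pass. None of the 6 Spearman coefficients passed after adjustment. Without the 2 arrays farthest from the median of the first gene, r was 0.78 for Actb and B2m, 0.83 for Actb and Gusb and 0.71 for B2m and Hprt1. It was 0.11 for B2m and Gusb without HA replicate 3 and C replicate 3, so that relation rested on these arrays. These unnormalized values include the brightness of each array as a whole.

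After normalization 0 of 6 pairs passed the adjusted exact permutation test. B2m and Hprt1 had r = 0.83 (exact permutation P = 0.0472, adjusted 0.142) and rho = 0.89 (exact permutation P = 0.0333, adjusted 0.2), and r was 0.88 without HA replicate 3 and C replicate 3, the 2 arrays farthest from the B2m median. Actb and B2m had r = 0.89 (exact permutation P = 0.0236, adjusted 0.142) and rho = 0.71 (exact permutation P = 0.136, adjusted 0.408). Without the same 2 arrays r was -0.27, so the relation of Actb with B2m rested on them. Gusb had r between 0.14 and 0.26 with the other 3 genes, and with 75th percentile scaling in place of quantile normalization it had r between 0.64 and 0.73, none of which passed the adjusted exact permutation test.

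The 4 genes also followed the other linear probes. Across the 6 arrays and before normalization, the correlation with the mean of the 36 other linear probes that were well above background on every array was 0.98 for Actb, 0.94 for B2m, 0.91 for Gusb and 0.84 for Hprt1. After normalization it was 0.87, 0.89, 0.52 and 0.69 in the same order. The correlation with the median of the circRNA probes before normalization was lower, at 0.74 for Actb, 0.57 for B2m, 0.47 for Gusb and 0.48 for Hprt1. Normalized Gusb had r = -0.83 with the same unnormalized median, against 0.35 for Actb, 0.25 for B2m and 0.07 for Hprt1, and the cause was not tested. That median signal was 125, 118 and 135 in C replicates 1 to 3 and 88.6, 149 and 135 in HA replicates 1 to 3. HA replicate 1 had the lowest circRNA median and the lowest Actb and B2m. HA replicate 2 had the highest circRNA median but was below HA replicate 3 and C replicate 3 for all 4 reference genes.

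**Figure D3:**
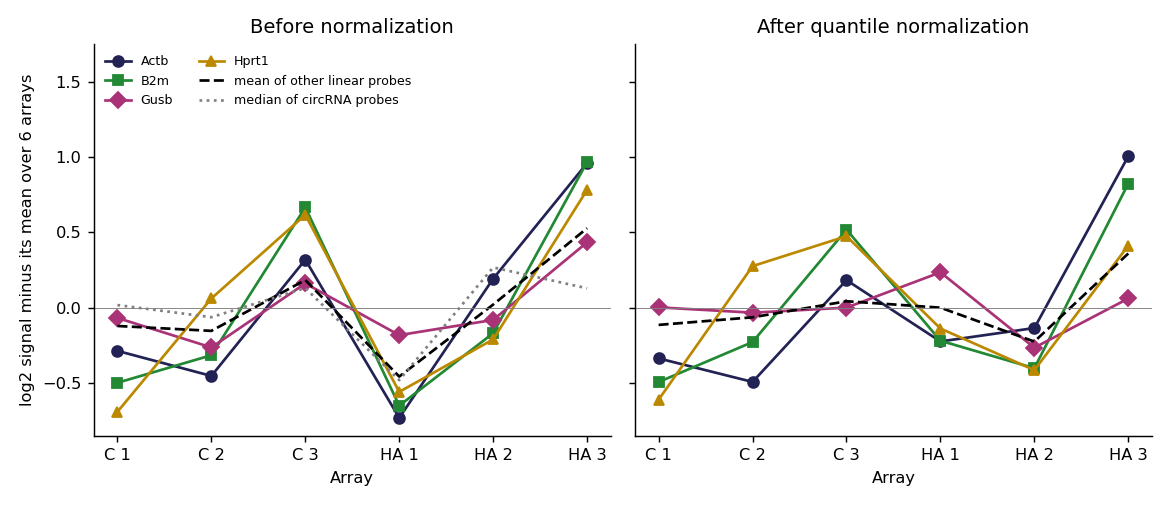
Log2 signal of each gene minus its own mean over the 6 arrays, before (left) and after (right) quantile normalization, with the mean of the 36 other linear probes (dashed) and the median of the circRNA probes (dotted, left only). Before normalization, in the order drawn, all genes peak at C replicate 3, drop at HA replicate 1 and peak again at HA replicate 3. HA replicate 1 is the lowest array for Actb and B2m, C replicate 2 for Gusb and C replicate 1 for Hprt1. After normalization Gusb no longer follows the others.

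Linear transcripts whose normalized values were most like each gene were sought among 22 named probes, by Pearson's r over the 6 arrays and as a description. Nearest to Actb were Map2 (r = 0.94), the chaperone gene Hsp90ab1 (0.85) and Rplp1 (0.83), which encodes a protein of the ribosomal stalk. Nearest to B2m were Trim2 (0.93), a ubiquitin ligase gene, Rplp1 (0.92) and Map2 (0.91). Hprt1 was closest to Trim2 (0.95), Rplp1 (0.83) and Sdha (0.81), the last encoding a subunit of succinate dehydrogenase. Gusb had other neighbours, P2rx2 (0.89), which encodes an ATP-gated channel, Pop7 (0.87), a subunit gene of ribonucleases P and MRP, and Cyp2e1 (0.78), a cytochrome P450 gene. These neighbours were dim like Gusb, at 3.83, 4.60 and 3.82 against 3.95 for Gusb in C replicate 1 (normalized log2 signal). Hprt1, at 3.16 on that array, had brighter neighbours, at 5.43, 6.97 and 7.85. Whether signal level bears on these likenesses was not tested. Rplp1 stood in the lists of Actb, B2m and Hprt1 alike.

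The difference between a pair of genes on the same array shows only whether they changed unequally. A single factor per array drops out of it, but quantile normalization does not, so the unnormalized differences are given too. None of the 6 pairs passed the exact permutation test between HA and C rats, which cannot give a P under 0.1 with 3 arrays against 3. For Actb minus B2m, the normalized log2 difference was 3.23, 2.80 and 2.73 in C replicates 1 to 3 and 3.06, 3.34 and 3.25 in HA replicates 1 to 3. The HA mean was higher by 0.30, the groups overlapped, and the exact permutation P was 0.2 (adjusted 0.6). Actb minus Hprt1 was higher by 0.52 in HA rats (exact permutation P = 0.2, adjusted 0.6) and Actb minus Gusb by 0.41 (exact permutation P = 0.6, adjusted 0.84). Without normalization the HA minus C values of these 3 pairs were 0.18 for Actb minus B2m, 0.27 for Actb minus Hprt1 and 0.17 for Actb minus Gusb. Without HA replicate 3 the normalized Actb minus Gusb value was 0.04, and without C replicate 2 the Actb minus Hprt1 value was 0.27. The pairs without Actb differed by 0.11 to 0.23 (exact permutation P from 0.6 to 0.9). Over the 6 arrays the steadiest pair was Actb and B2m, whose difference had an SD of 0.25, followed by B2m and Hprt1 with 0.30. Before normalization these 2 pairs changed places, with 0.25 and 0.21. After normalization Actb and Gusb varied most, with an SD of 0.54 and a range of 2.65-fold. Before normalization their SD was 0.39, and Gusb and Hprt1 varied most, with an SD of 0.44 and a range of 2.11-fold.

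The array carries 12 probes of reference transcripts, to which all 4 genes belong and of which 10 were matched to a symbol. The other 6 named genes were Rplp1, Rpl13a, Sdha, Hsp90ab1, Pgk1 and Ldha, the last pair encoding the glycolytic enzymes phosphoglycerate kinase and lactate dehydrogenase A. Of a list of 25 common reference genes, these 6 and the 4 members were the ones with a matched probe. Ldha had a second probe, which made 7 probes beside the members. All 7 were well above background on 6 arrays, 0 passed limma's unadjusted P of 0.05, and 4 had a higher mean in HA. Their HA minus C differences ran from -0.18 to 0.40 with a median of 0.02 (log2), against a median of -0.0055 over all probes tested. With the sign left out, the median over all probes tested was 0.16, which cannot be set against the signed 0.02. The largest of these 7 was the Ldha probe of the panel at 0.40 (SE 0.23, limma, adjusted P = 0.923), and the second Ldha probe had 0.27 (SE 0.22, limma, adjusted P = 0.923). The 2 panel probes without a symbol are in neither the range nor the median. The probe on XM_345576.3 differed by -0.02 (SE 0.17). The probe on XM_340999.3 had the largest difference of the panel, 0.70 (SE 0.31), with a 95% interval of -0.0016 to 1.40 and an adjusted P of 0.923 in limma. It was named after its value was seen, and its normalized signal was 4.22, 3.21 and 4.23 in C and 4.50, 4.22 and 5.03 in HA replicates, which overlapped.

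Steadiness was measured on log2 signals before normalization throughout. The measure was the mean SD, over the 6 arrays, of the log2 difference between a gene and each of the 11 other panel probes. Rplp1 had the lowest at 0.31. Gusb came at place 3 of 12 with 0.35, Actb at place 6 with 0.40, B2m at place 10 with 0.44 and Hprt1 at place 11 with 0.44. B2m and Hprt1 were thus among the least steady of the panel, and Gusb among the steadiest. When each gene was set only against the other 3 members, the order turned, with 0.30 for B2m, 0.34 for Actb, 0.35 for Hprt1 and 0.42 for Gusb. Against the median of the circRNA probes, Gusb had an SD of 0.27 over the 6 arrays, Actb 0.46, Hprt1 0.53 and B2m 0.55. The choice of the steadiest gene therefore rested on what it was compared with, and no test was made of these ranks.

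**Figure D4:**
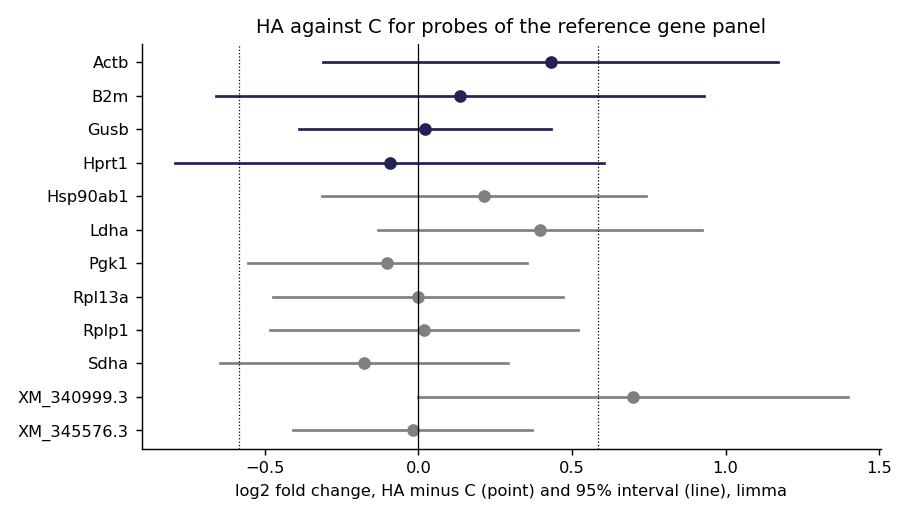
Difference in normalized log2 signal between HA and C rats (limma, points, with 95% confidence intervals) for the probes of reference genes, Actb, B2m, Gusb and Hprt1 in dark blue and the other 8 probes of the panel in grey, 2 of them under their transcript accession. Dotted lines mark a fold change of 1.5 either way. Every interval spans 0, that of XM_340999.3 only just, and those of Actb and B2m are the widest.

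Because reference genes are used to scale others, the circRNA comparison was repeated with the arrays scaled to each of the 4 in turn, in place of quantile normalization. With quantile normalization, 366 of 13838 circRNA probes passed limma's unadjusted P of 0.05 with over 1.5-fold change, which is 2.64%, with 218 higher and 148 lower in HA rats. Scaled to Actb, 332 probes passed (2.40%), 37 higher and 295 lower, and the median circRNA difference moved to -0.35 on the log2 scale. Scaled to B2m, 110 passed (0.795%), 35 higher and 75 lower, with a median of -0.17. Scaled to Gusb, 537 passed (3.88%), 141 higher and 396 lower, with a median of -0.19, and scaled to Hprt1, 116 passed (0.838%), 53 higher and 63 lower, with a median of -0.08. Scaling to a single gene moves all circRNAs of an array by the same amount. The split between higher and lower probes thus follows from the unnormalized circRNA differences, with a median of -0.07, less that of the gene. The latter was 0.28 for Actb, 0.10 for B2m, 0.11 for Gusb and 0.01 for Hprt1 before normalization. The split also depended on the normalization without any reference gene, with 375 higher and 71 lower under 75th percentile scaling and 186 higher and 193 lower without normalization.

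After Benjamini-Hochberg adjustment over all probes, limma called 60 probes scaled to Gusb (0.432%) and 2 scaled to Actb (0.0144%). It called 0 scaled to B2m or to Hprt1, where 110 and 116 probes had an unadjusted P under 0.05, and 0 with quantile normalization. Scaling to a single gene passes the deviations of that gene on each array on to every circRNA, so these calls are values relative to that gene. They rest on the 6 values of the gene used, and the spot error of Gusb, with an SE of the mean of up to 0.09 on an array, enters them. With no normalization and no reference gene, limma called 4 of 13892 probes after the same adjustment.

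**Figure D5:**
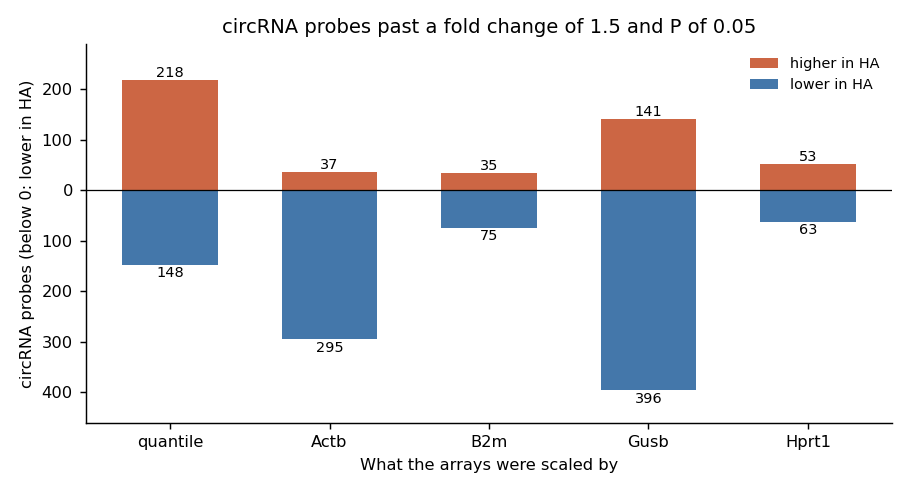
Number of circRNA probes that passed the same fold and P limits, drawn upwards where higher and downwards where lower in HA than in C rats (y axis, number of probes), with quantile normalization and with arrays scaled to each reference gene. With quantile normalization 218 were higher and 148 lower, and under every scaling to a single gene the lower probes were the more numerous, from 295 against 37 for Actb to 63 against 53 for Hprt1.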

How the data were processed

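RNase R treated hypothalamic RNA of 3 HA and 3 C rats was measured on 1-colour arrays. A row and a column position on a slide were read for each array, and whether all arrays shared 1 slide was not established. The authors scanned them and extracted spot intensity with Agilent Feature Extraction 11.0.1.1; the deposited intensity columns are the background-corrected signal, its error, and the spot and local background medians, with spot flags for outliers, saturation and signal well above background. Here, spots with outlier flags were dropped, log2 signals of a probe were averaged, and arrays were quantile normalized. limma 3.58.1 in R 4.3.3 (lmFit, eBayes) was fitted to the 13892 probes for which most kept spots were well above background on at least 3 of 6 arrays, with Benjamini-Hochberg adjustment over all of them; the fit was tested on simulated data. Single values were compared by exact two-sided permutation tests over arrays. Gene symbols came from the RefSeq transcript table (GRCr8) by accession, for names only. The genes, lists and tests were chosen with earlier results of these data known. The genes named are the 4 members, the 3 most alike linear probes of each, and listed reference and marker genes. The number of arrays limits the precision. Same-numbered HA and C replicates were from different rats, and their deviations did not correlate (r = -0.03, -0.20 and 0.07), so they were not paired. Alternatives were other background corrections and normalizations, spot summaries, filters, array weights, slide row or replicate number as a block, each array left out and, added after seeing the data, arrays scaled to each gene and the circRNA count under every alternative.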

Additional observations from a re-analysis of the deposited data

How the results depend on the processing

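Over 19 alternatives the limma test called none of the 4 genes: the smallest unadjusted P was 0.0832 and the smallest adjusted P 0.801. With the replicate block Actb differed by 0.43 (limma, adjusted P = 1.0), and it changed no call. Signs did turn, in differences that had not passed any test, and the cause was not tested. Hprt1 turned to 0.14 with 75th percentile scaling, 0.0087 with no normalization and 0.14 with array weights. Gusb turned to -0.0119 on spot median intensity, -0.0232 with normexp, -0.0018 with the median of the spots and -0.0063 with array weights. With the slide row as a block Actb was -0.0087 and B2m -0.15. Unnormalized Gusb was -0.024 on spot median intensity and -0.0001 with normexp, and unnormalized Hprt1 was -0.0638 on spot median intensity and -0.0115 with the median of the spots. The B2m minus Gusb difference was -0.0152 with 75th percentile scaling and with no normalization. Correlations passed only without normalization (Actb with B2m 0.92, Actb with Gusb 0.92, B2m with Gusb 0.92, B2m with Hprt1 0.95) or, for B2m with Hprt1, also with 75th percentile scaling (0.94). With normexp they turned to -0.17 for Actb with Gusb, -0.0202 for B2m with Gusb and -0.0505 for Gusb with Hprt1. The HA minus C difference in spot SD was 0.0142 on spot median intensity and 0.0157 with normexp for B2m, and -0.002 with normexp for Hprt1. The count of 366 circRNA probes moved to 110 scaled to B2m, 116 scaled to Hprt1, 146 on spot median intensity, 66 with normexp, 125 unmoderated and 628 with the slide row as a block (279 higher, 349 lower). These were chosen after seeing the data.

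Leaving out each array in turn, the normalized difference ran from 0.04 to 0.65 for Actb, -0.25 to 0.43 for B2m, -0.0926 to 0.16 for Gusb and -0.42 to 0.12 for Hprt1. Unnormalized it ran from -0.13 to 0.72, -0.36 to 0.46, -0.0747 to 0.23 and -0.38 to 0.32 in the same order, and the lowest values for Actb, B2m, Gusb and Hprt1 were those without HA replicate 3. Among pairs, B2m minus Gusb ran from -0.24 to 0.40 and Gusb minus Hprt1 from -0.0939 to 0.44, while the other 4 pairs kept their sign, with Actb minus Gusb from 0.04 to 0.74. The circRNA count ran from 252 to 751, with 584 without C replicate 1 and 751 without C replicate 3. The difference in spot SD ran from -0.0032 to 0.012 for Actb, -0.03 to -0.0022 for B2m, -0.15 to -0.10 for Gusb and -0.0357 to 0.0704 for Hprt1. Gusb and Hprt1 lay close to background, with array medians of at most 2.76 times and single spots of at most 3.58 times the local background.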
